A study of Mus musculus with 2 samples.

Results

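The 10 genes described here encode enzymes that use choline or turn the methionine cycle in liver: Pemt, Bhmt, Chdh, Dmgdh, Sardh, Gnmt, Mat1a, Ahcy, Pcyt1a and Chka. They were picked by symbol from the 32285 genes listed in both count tables, because the mice ate a feed to which no choline was added. All 10 were found, and each had UMIs in both libraries. Liver cells were profiled by droplet-based single-cell RNA-Seq with 10x Genomics 3' chemistry, in which every captured RNA molecule receives a unique molecular identifier (UMI) and every droplet a barcode. There was 1 library from WT littermates and 1 from HKO mice, in which miR-33 loxP/loxP alleles were recombined by Cre under the albumin promoter, so that miR-33 is removed from hepatocytes. Both groups were male, received the choline-deficient high-fat diet (CD-HFD) from 8 weeks of age for 6 months, were fasted before the end point, and contributed a pool of 3 livers each. Isolated hepatocytes and sorted live non-parenchymal cells had been mixed in equal numbers. The study used the libraries to ask how loss of hepatocyte miR-33 changes the liver during advanced steatohepatitis. With 1 library per genotype no test between genotypes was possible, and no spread between animals is known. Intervals are 95% intervals of the counts, which leave out any difference between animals.

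Choline reaches phosphatidylcholine, the main membrane phospholipid, through the CDP-choline pathway: choline kinases such as Chka phosphorylate it, and Pcyt1a, which joins phosphocholine to CTP, carries out the rate-limiting step. Liver has a second route, in which Pemt methylates phosphatidylethanolamine with S-adenosylmethionine. Choline can also be oxidised to betaine, starting with Chdh. Bhmt then moves a betaine methyl group to homocysteine, which restores methionine, and Dmgdh and Sardh strip the remaining methyl groups to leave glycine. Mat1a makes S-adenosylmethionine from methionine, Gnmt consumes it by methylating glycine, and Ahcy splits the S-adenosylhomocysteine that all such methyl transfers leave behind. Feeds without choline are widely used in rodents because the liver needs phosphatidylcholine to export fat in lipoproteins.

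The tables hold 30078 barcodes with 130451427 UMIs for WT, and 20000 barcodes with 52563185 UMIs for HKO. After filtering, 22601 WT and 15583 HKO barcodes remained, of which 20154 and 10307 had the depth of free RNA, that is, RNA released from broken cells and captured in droplets without a cell. Hepatocyte-like barcodes came from clusters in which fewer than 3 markers of any other list stood out, and held no less than 2 times the depth most common in the library (5140 UMIs in WT, 1626 in HKO). They numbered 1913 in WT and 3698 in HKO. Single markers of other cells did stand out, namely the cholangiocyte marker Pkhd1 in clusters 4 and 5 and the globin gene Hbb-bs in cluster 2. Cluster 2 gave only 7 and 37 of these barcodes, but red cell markers held 580683 and 655539 CPM there, and without it the ratios of the members stayed within their intervals (Mat1a 2.36, Chka 0.409). The clusters gave different shares in the libraries: cluster 8 held 35.2% of them in WT and 36.7% in HKO, cluster 5 held 27.0% and 15.1%, cluster 4 held 21.4% and 5.71%, and cluster 3 held 5.18% and 22.7%. The genes highest by fold were Gm15622, Taco1 and Gm26917 in cluster 4, and Gm15622, mt-Nd3 and mt-Nd4l in cluster 5. In cluster 3 they were Mt1, Gstp1 and A2ml1. Gm15622 is annotated as antisense to Bhmt. The median barcode of the class held 20317 UMIs in WT, against 4226.5 in HKO. Albumin (Alb), the defining hepatocyte transcript, reached 36332 counts per 1000000 UMIs of the class (CPM) in WT and 27553 CPM in HKO hepatocyte-like barcodes. It was also at 34769 and 30150 CPM in barcodes of free RNA depth, so that free hepatocyte RNA was present throughout both libraries. Mir33 itself was not among the listed genes, so these tables give no check of the deletion.

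In hepatocyte-like barcodes the members did not move as a block. Mat1a was more than 2-fold higher in HKO than in WT, Chka was more than 2-fold lower, and the other 8 enzymes differed by less than 1.5-fold. The median log2 ratio of HKO over WT was 0.05 over the members and -0.03 over all 7077 genes whose CPM averaged 10 or more. Of the 10 members, 5 were higher and 5 were lower in HKO, and 45.8% of all genes were higher. At the 1.5-fold threshold, 1 member was higher and 1 was lower, beside 2.42% and 4.25% of all genes. At 2-fold the same pair passed, beside 0.424% and 0.961% of all genes. Ranked by ratio among the 7077 genes, Mat1a stood at place 17 from the top and Chka at place 24 from the bottom. The Chka difference did not hold in every cluster, which was looked at after the data had been seen, in the 6 clusters with at least 50 hepatocyte-like barcodes of both libraries. Mat1a was higher in HKO in 6 of 6, with ratios of 1.41 to 2.90, and was under 1.5-fold in clusters 4 and 5. Chka was lower in HKO at 0.400252 (0.381 to 0.420) in cluster 5, 0.543 (0.520 to 0.567) in cluster 8 and 0.701 (0.554 to 0.891) in cluster 3. In cluster 4 it was higher in HKO, with 1593 CPM against 1051 CPM for WT (ratio 1.52, 1.45 to 1.58), and in clusters 6 and 7 the interval of its ratio included 1. The 8 cholangiocyte markers summed to 149 CPM in WT and 215 CPM in HKO in cluster 4, and to 165 and 99.8 CPM in cluster 5. Pkhd1 made up 81.5% of the HKO sum in cluster 4, and without it the other 7 markers came to 86.4 CPM for WT against 39.7 CPM for HKO there, and to 88.9 and 39.5 CPM in cluster 5. In the whole class they summed to 164 and 99.2 CPM, and in cholangiocyte-like barcodes to 17179 and 14801 CPM. Krt7 and Cftr had 0 UMIs in hepatocyte-like barcodes of both libraries. The level of Chka itself differed by cluster, from 85.5 CPM in cluster 7 to 1199 CPM in cluster 5 for WT, and from 60.9 CPM in cluster 3 to 1593 CPM in cluster 4 for HKO. The part of these markers and of the unequal cluster shares in the summed ratios was not tested.

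**Figure D1:**
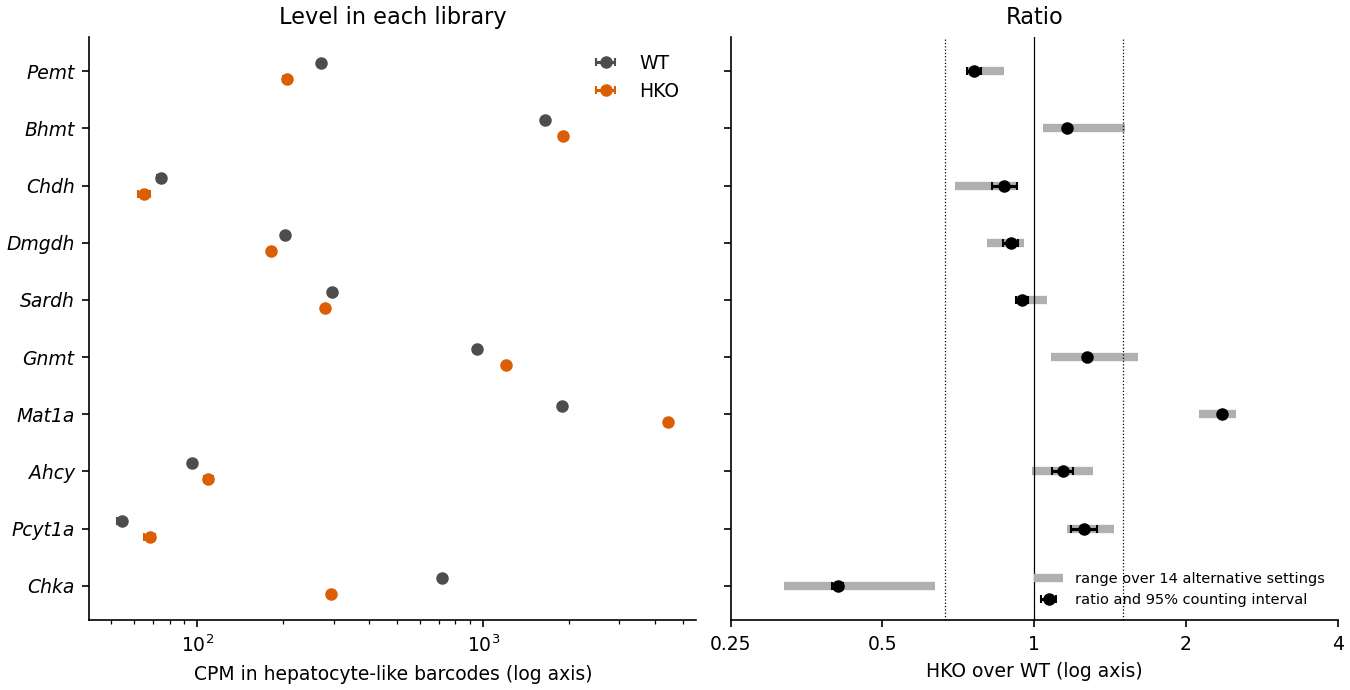
Members in hepatocyte-like barcodes. The left panel plots CPM in the WT (grey) and HKO (orange) library with counting intervals on a log axis, and the right panel plots the HKO over WT ratio (black, with interval), its range over the alternative settings (grey bars) and 1.5-fold either way (dotted lines). Mat1a at 2.36 and Chka at 0.408 lie outside the dotted lines, and their grey bars, which leave out the values within single clusters, do not reach 1.

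Of the enzymes of the methionine cycle, Mat1a alone was past 1.5-fold. Mat1a (ENSMUSG00000037798, chromosome 14, 41105035 to 41124412 on the plus strand of GRCm38) is the liver form of methionine adenosyltransferase. It had 92171 UMIs in WT and 116333 in HKO, or 1881 CPM (1869 to 1894) and 4439 CPM (4413 to 4465). The HKO value was 2.36 times that of WT (2.34 to 2.38), with ratios of 2.12 to 2.51 over 14 alternative settings. In the barcodes of free RNA depth Mat1a stood at 1984 CPM for WT against 3252 CPM for HKO (ratio 1.64, 1.62 to 1.66). Gnmt (chromosome 17, 46725664 to 46729168, minus strand), the glycine methyltransferase that uses up S-adenosylmethionine, measured 948 CPM (939.9 to 957) in WT against 1205 CPM (1192 to 1218) in HKO. Its ratio was 1.27 (1.25 to 1.29), against 0.953 (0.944 to 0.962) over all deposited barcodes and 0.628 to 1.67 within clusters. Ahcy (chromosome 2, 155059310 to 155074497, minus strand), the hydrolase of S-adenosylhomocysteine, was close in both libraries at 95.9 CPM (93.2 to 98.7) and 109 CPM (105 to 113), a ratio of 1.14 (1.09 to 1.19), with 0.782 to 1.64 within clusters. Over all deposited barcodes the Ahcy ratio was 0.832 (0.804 to 0.859), and with no depth minimum it was 0.991. At free RNA depth Ahcy had a ratio of 0.892 (0.837 to 0.9504). Mat2a and Mat2b encode the methionine adenosyltransferase of other tissues and its regulatory subunit. Mat2a stood at 89.5 and 92.2 CPM (ratio 1.03, 0.979 to 1.08), and Mat2b stood at 26.3 and 35.3 CPM (ratio 1.34, 1.23 to 1.46).

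Chka went the other way, and its partner in the pathway did not. Chka (ENSMUSG00000024843, chromosome 19, 3851773 to 3894369, plus strand), choline kinase alpha, had 35262 UMIs in WT and 7693 in HKO hepatocyte-like barcodes. This was 719.8 CPM (712 to 727) against 294 CPM (287 to 300.2), a ratio of 0.408 (0.398 to 0.418). Over the alternative settings the ratio lay between 0.319 and 0.634, and without the barcode richest in Chka in each library it was 0.403. Barcodes of free RNA depth held 278 and 184 CPM of Chka, a ratio of 0.661. Pcyt1a (chromosome 16, 32430921 to 32475070, plus strand), the next enzyme of the CDP-choline route, measured 54.2 CPM (52.2 to 56.3) in WT against 68.0 CPM (64.9 to 71.3) in HKO (ratio 1.25, 1.18 to 1.33). Within clusters its ratio ran from 0.850 to 1.99 and was above 1 in 5 of 6. Chkb, the second choline kinase, stood at 31.2 and 23.8 CPM (ratio 0.764, 0.695 to 0.839), and Pcyt1b was near absent with 6 and 5 UMIs. Pemt (chromosome 11, 59970614 to 60046489, minus strand), the methyltransferase of the second route to phosphatidylcholine, measured 270.3 CPM (266 to 275) in WT against 205 CPM (199.9 to 211) in HKO. Its ratio was 0.760 (0.736 to 0.784), lower in HKO but within 1.5-fold, and 0.662 to 0.946 within clusters.

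No enzyme of the betaine branch was past 1.5-fold in the class as a whole. Bhmt (chromosome 13, 93616675 to 93637961, minus strand), the betaine-homocysteine methyltransferase, measured 1643 CPM (1631 to 1654) in WT against 1910.1 CPM (1893 to 1927) in HKO (ratio 1.16, 1.15 to 1.18). Within clusters its ratio ran from 0.682 to 1.30 and was above 1 in 2 of 6. Its direction turned in barcodes of free RNA depth, at 1758 CPM for WT against 1404 CPM for HKO (ratio 0.799, 0.784 to 0.813), and over all deposited barcodes, at 0.858 (0.850 to 0.865). Bhmt2, a similar gene that lies between Bhmt and Dmgdh (93655720 to 93674302, minus strand), stood at 186 and 188 CPM (ratio 1.01, 0.977 to 1.05). Reads from stretches that the pair share could be split between them by the counting. Chdh (chromosome 14, 30009023 to 30040527, plus strand), the mitochondrial choline dehydrogenase, stood at 74.7 CPM (72.3 to 77.2) and 65.2 CPM (62.2 to 68.4) (ratio 0.872, 0.823 to 0.924). Its direction was not the same in all clusters, with 1.64 (1.41 to 1.91) in cluster 4, 0.3999 (0.194 to 0.758) in cluster 7 and values above 1 in 3 of 6. Dmgdh (chromosome 13, 93674433 to 93752833, plus strand) and Sardh (chromosome 2, 27188393 to 27248337, minus strand) are the mitochondrial enzymes that demethylate dimethylglycine and sarcosine. Dmgdh stood at 202 CPM (198 to 206) and 181 CPM (176 to 186) (ratio 0.898, 0.867 to 0.930). Sardh stood at 295 CPM (290.4 to 300.05) and 279.5 CPM (273 to 286) (ratio 0.947, 0.920 to 0.974). Within clusters Dmgdh ran from 0.724 to 1.01 and Sardh from 0.744 to 1.21, above 1 in 1 and in 4 of 6. In barcodes of free RNA depth the ratio of Sardh was 1.04 (0.998 to 1.08). Apart from Pemt and Mat1a, all members overlap another annotated gene, which was on the opposite strand in each case, and whether the counting used strand is not given in the sources used here.

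The libraries differed in depth per barcode, so barcodes of matched depth were also compared, a choice made after the data had been seen. For Mat1a the HKO over WT ratio was 2.14 (2.08 to 2.20) in barcodes with 5140 to under 10000 UMIs. It was 2.51 (2.46 to 2.56) at 10000 to under 20000 UMIs and 2.27 (2.23 to 2.31) at 20000 to under 40000. Chka stayed lower in HKO in each band, at 0.634 (0.589 to 0.684), 0.418 (0.40003 to 0.437) and 0.472 (0.451 to 0.495). The WT level of Chka was 427 CPM in the shallowest of these bands and 829 CPM in the deepest. Bhmt and Gnmt reached ratios of 1.52 and 1.61 in the middle band, against 1.11 and 1.08 in the shallowest. Malat1, a nuclear RNA, had ratios of 1.87, 0.791 and 0.584 over the same bands, so that barcodes of the same band differed between the libraries in their Malat1 level. Nuclear RNA as a whole was not measured here. The part of the Malat1 shift in the ratios of the members was not tested.

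The share of UMIs from mitochondrially encoded genes, which is high in stressed or damaged cells, moved with several members. In barcodes of at least 5000 UMIs, Mat1a had 1936 CPM below 10% mitochondrial UMIs, 2255 CPM between 10% and 20%, and 1276 CPM above 20% in WT, and 5258, 4646 and 2610 CPM in HKO. Bhmt had 1773, 2049 and 840 CPM in WT and 2355, 2027 and 943 CPM in HKO. Gnmt had 1256, 785 and 533 CPM in WT and 1475, 1090.3 and 680.01 CPM in HKO. All 3 were thus lowest above 20%, but Mat1a and Bhmt of WT were highest in the middle band. Chka had 761, 468 and 967 CPM in WT, highest above 20%, and 461, 227 and 349 CPM in HKO. Within these bands the HKO over WT ratio of Mat1a was 2.72 (2.68 to 2.75), 2.06 (2.03 to 2.09) and 2.05 (2.00 to 2.10), and that of Chka was 0.606 (0.582 to 0.629), 0.485 (0.462 to 0.509) and 0.361 (0.342 to 0.381). Pemt had ratios of 0.637 (0.601 to 0.675), 0.999 (0.944 to 1.06) and 0.845 (0.782 to 0.913), so that its interval included 1 in the middle band. These bands were chosen after the data had been seen, and the part of the mitochondrial share in the ratios was not tested.

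UMIs of Mat1a, Chka, Bhmt and Gnmt varied over barcodes by more than counting noise. Each hepatocyte-like barcode of at least 5000 UMIs was thinned to 5000, which kept 1913 WT and 1648 HKO barcodes. Mat1a was seen in 99.4% of the thinned WT barcodes and in 99.8% of the HKO barcodes, with medians of 8 and 20 UMIs and a top 10% that started at 17 and 40 UMIs. At least 20 Mat1a UMIs were found in 5.75% of WT barcodes and in 52.1% of HKO barcodes, so the whole distribution lay higher in HKO. Chka was seen in 69.8% of WT barcodes (67.7 to 71.9) and 49.1% of HKO barcodes (46.6 to 51.5), with medians of 1 and 0 UMIs. At the same depth the 119 T and NK-like barcodes of WT held Mat1a in 99.2% (95.4 to 99.98) and Chka in 52.1% (42.8 to 61.3), with a median of 4 and 1 UMIs. T and NK-like barcodes thus also held Chka less often than Mat1a, and the share is not read as a share of hepatocytes that use the gene. In HKO only 25 of the T and NK-like barcodes reached 5000 UMIs, and they held Mat1a in 23 and Chka in 8. The highest hepatocyte-like barcodes held 53 and 46 Chka UMIs, against 5 and 2 in T and NK-like barcodes. The 10% of barcodes richest in Chka carried 50.7% of all Chka UMIs in WT and 60.95% in HKO, against 22.6% and 23.3% for Mat1a. The variance of Chka counts over barcodes was 10.3 times the mean in WT and 8.76 times in HKO, and that of Mat1a was 3.30 and 9.07 times. Bhmt had 3.88 and 5.89 times, and Gnmt had 2.47 and 3.78 times. For Pemt, Chdh, Dmgdh, Sardh, Ahcy and Pcyt1a the same quotient lay between 1.05 and 1.24, where 1 is the value of pure counting noise. Their means were 0.271 to 1.45 UMIs, against 1.55 to 22.3 UMIs for Mat1a, Chka, Bhmt and Gnmt. At equal relative spread the quotient rises with the mean, so quotients of members with unlike means are not compared.

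**Figure D2:**
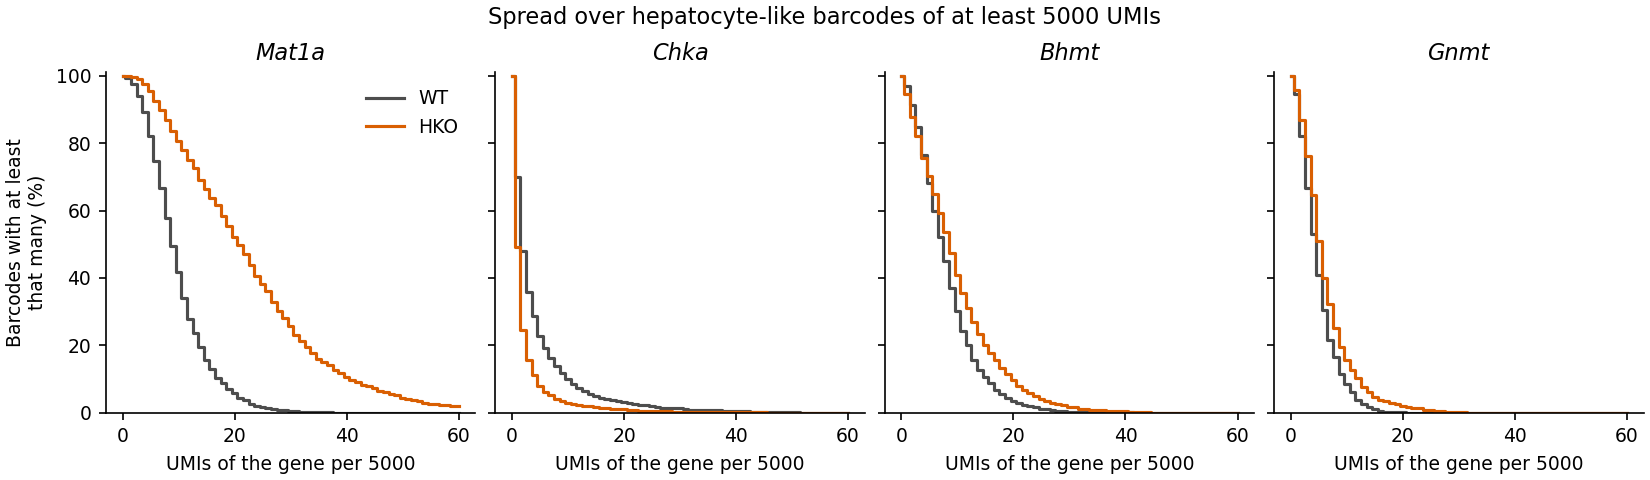
Spread of 4 members over hepatocyte-like barcodes thinned to 5000 UMIs. The vertical axis gives the percentage of barcodes with at least the number of UMIs on the horizontal axis, for WT (grey) and HKO (orange); the Mat1a curve of HKO lies right of that of WT, and the Chka curves drop within a few UMIs and then run on to 53 UMIs in WT and 46 in HKO.

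Shares of barcodes with a UMI were compared with those in T and NK-like barcodes, in which the liver enzymes Mat1a, Bhmt and Pemt should be lacking, after thinning to 1500 UMIs. Of hepatocyte-like barcodes, 89.4% in WT and 97.0% in HKO held Mat1a, against 80.7% and 73.4% of T and NK-like barcodes. Chka was detected in 44.4% and 21.3% of hepatocyte-like barcodes against 20.3% and 13.9% of T and NK-like barcodes. For Pemt the values were 31.9% and 25.7% against 15.7% and 6.06%. The WT shares of Bhmt, 80.1% in hepatocyte-like and 77.2% in T and NK-like barcodes, overlapped in their intervals, so detection of Bhmt in WT could not be told from free RNA. Intervals also overlapped for Gnmt in WT (67.7% against 60.9%), Chdh in WT (10.6% against 7.61%) and Pcyt1a in HKO (8.84% against 5.87%). By this measure these were not set apart from T and NK-like barcodes either. Without thinning, Mat1a was seen in 100% of WT and 99.5% of HKO hepatocyte-like barcodes, and in 99.0% and 85.8% of T and NK-like barcodes. Chka was seen in 88.4% of WT and 43.2% of HKO hepatocyte-like barcodes at median depths of 20317 and 4226.5 UMIs, and in 60.2% and 23.0% of T and NK-like barcodes at 5548 and 2194 UMIs.

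Hepatocytes differ along the lobule between the portal vein and the central vein, and the members were followed along this axis. A zone score was built from 11 pericentral landmarks (such as Glul and Cyp2e1) and 10 periportal ones (such as Cyp2f2 and Hal), none of them a member, and each library was cut into 3 zones of equal size (periportal, middle and pericentral) and, more finely, into 10 equal steps. Genes kept out of the score followed it in both libraries. All 6 pericentral check genes, among them Lgr5 and Axin2, were higher in the pericentral zone, and all 5 periportal check genes, among them Gls2 and Etnppl, were lower. Alb, also kept out, was lower too, with a pericentral over periportal ratio of 0.699 in WT and 0.508 in HKO. The contrast of the landmarks was wider in HKO: Glul was 13.95-fold higher in the pericentral than in the periportal zone in WT and 85.0-fold in HKO. Sizes of zone ratios were therefore not compared between the libraries. Cuts were not sharp, since 189 WT and 129 HKO barcodes lay within 0.05 score units of one.

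No member was zoned alike in both libraries at the sizes counted. At 1.25-fold, a threshold chosen after the values were seen, 0 members were higher and 0 were lower in the pericentral zone of both libraries, beside 13.2% and 5.51% of 7095 genes. At 1.5-fold the counts were again 0 and 0, beside 3.86% and 1.99% of genes. The ratios nonetheless ran from 0.808 to 1.22 in WT and from 0.698 to 1.30 in HKO. Chka and Pcyt1a in HKO were past 1.25-fold higher, and Gnmt, Mat1a and Ahcy in HKO past 1.25-fold lower. Over the 7095 genes the median log2 pericentral over periportal ratio was 0.008 in WT and 0.129 in HKO, so the typical gene of HKO was above 1. Pemt had ratios above 1 in both, with 225 CPM periportal and 274 CPM pericentral in WT (ratio 1.22, 1.17 to 1.27) and 191 and 209.5 CPM in HKO (1.10, 1.02 to 1.18). The HKO ratio was close to that of the median gene and is not read as zoning of Pemt. Both ratios stayed above 1 under each of 6 alternative zone settings. In WT, Pemt peaked in the middle of the axis, at 331 CPM in step 5 of the score against 219 CPM in the first and 237 CPM in the last. Gnmt was lower in the pericentral zone in both libraries, with ratios of 0.837 (0.817 to 0.857) in WT and 0.698 (0.676 to 0.721) in HKO. Its lowest step was the last, next to the central vein, at 481 CPM for WT against 752 CPM for HKO. With pericentral landmarks alone the WT ratio of Gnmt turned to 1.18. Mat1a was also lower pericentrally, at 0.873 (0.859 to 0.886) and 0.790 (0.778 to 0.803), but 1.01 in WT with pericentral landmarks alone. In HKO it ran from 0.727 to 0.995 over the 6 alternative settings. Chdh had ratios of 0.891 (0.825 to 0.962) and 0.936 (0.825 to 1.06). Dmgdh had 0.898 (0.856 to 0.943) and 0.912 (0.845 to 0.985), which turned to 1.03 and 1.04 with pericentral landmarks alone. Ahcy had 0.964 (0.898 to 1.03) and 0.754 (0.682 to 0.833), with 1.22 in WT when pericentral landmarks were used alone and 1.05 at no more than 20% mitochondrial UMIs. Pcyt1a had 1.02 (0.935 to 1.12) and 1.29 (1.14 to 1.45).

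For the remaining 3 members the libraries lay on opposite sides of 1, a difference that was not tested. Against the median of all genes (log2 0.008 in WT and 0.129 in HKO), Bhmt was on the lower side in both libraries. Chka was lower in the pericentral zone of WT, at 0.808 (0.788 to 0.828), and higher in that of HKO, at 1.30 (1.23 to 1.38). Among barcodes with at most 20% mitochondrial UMIs the HKO value was 0.998. Bhmt had 0.925 (0.9096 to 0.940) in WT, which turned to 1.08 with pericentral landmarks alone, and 1.05 (1.03 to 1.08) in HKO, which turned to 0.903 with periportal landmarks alone. Sardh had 1.06 (1.02 to 1.11) in WT, which fell below 1 under 3 of 6 alternative settings (lowest 0.893, periportal landmarks alone), and 0.837 (0.786 to 0.890) in HKO.

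**Figure D3:**
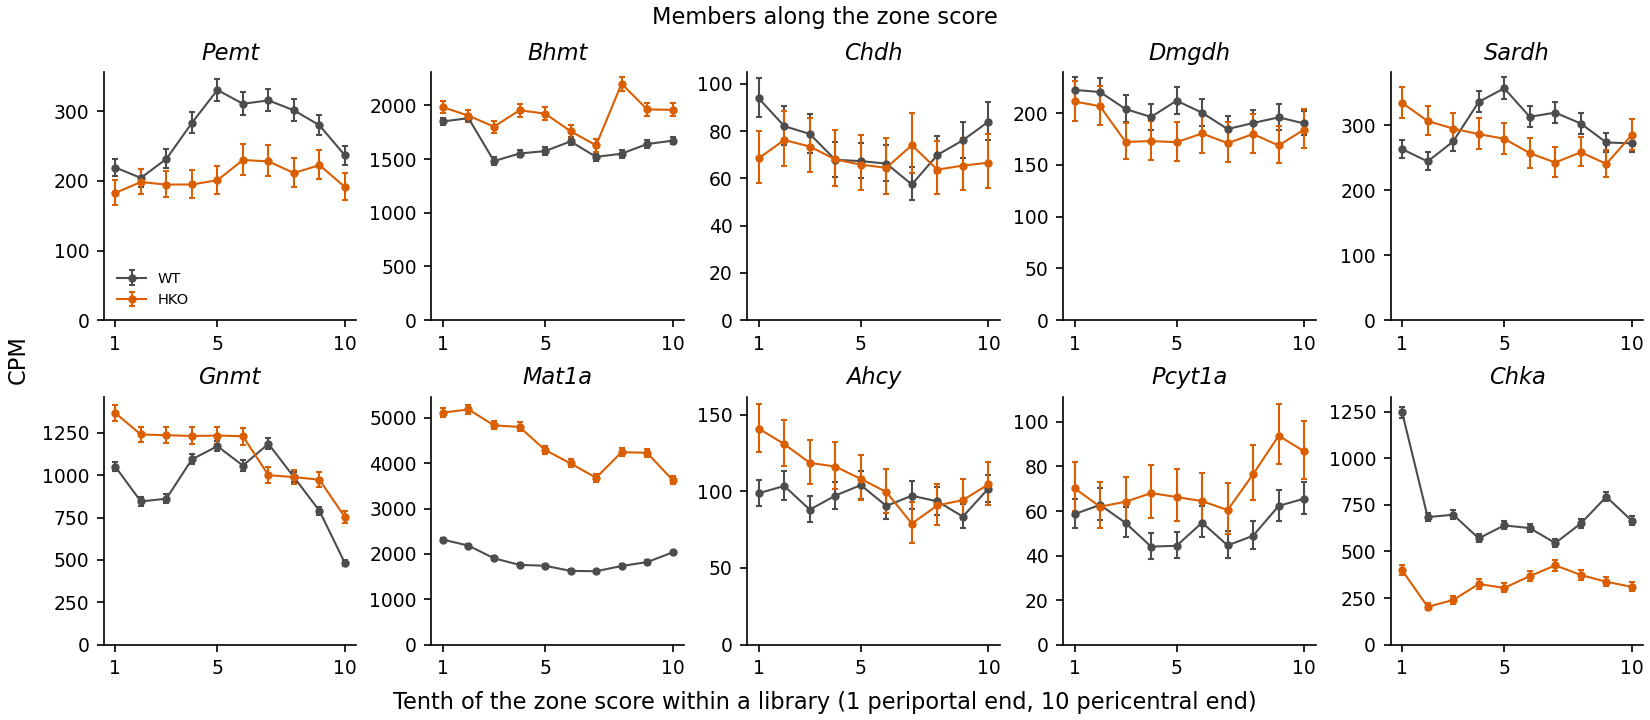
Members along the zone score. Each panel plots CPM with its counting interval (vertical axis from 0) in each of 10 equal steps of the score, from the periportal end (1) to the pericentral end (10), for WT (grey) and HKO (orange). Mat1a of HKO lies above and Chka of HKO below WT in all 10 steps, and Gnmt is lowest in the last step of both libraries.

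The difference between the libraries in Mat1a and Chka was present in every zone of the lobule. Mat1a had 2119 and 5039 CPM in the periportal zone, 1666 and 4188 CPM in the middle zone, and 1849 and 3982 CPM in the pericentral zone of WT and HKO. The ratios were 2.38 (2.34 to 2.41), 2.51 (2.47 to 2.56) and 2.15 (2.12 to 2.19). Chka had 868 and 271 CPM, 584 and 361 CPM, and 701 and 353 CPM in the same order, with ratios of 0.312 (0.298 to 0.327), 0.619 (0.591 to 0.648) and 0.503 (0.481 to 0.526). In the first periportal step Chka measured 1246 CPM for WT against 399 CPM for HKO, each above the next step at 684 and 203 CPM. Sardh changed side with the zone, with an HKO over WT ratio of 1.16 (1.10 to 1.22) in the periportal zone and 0.793 (0.751 to 0.838) in the middle zone.

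Outside hepatocytes, most members were near the level that free RNA alone would give in T and NK-like barcodes, and less closely so in some other classes. The expected number of UMIs was computed from the Alb UMIs of a class and the gene's ratio to Alb in barcodes of free RNA depth of the same library. In T and NK-like barcodes (201 in WT, 691 in HKO) the observed UMIs of Mat1a were 0.968 (0.912 to 1.03) and 1.02 (0.973 to 1.07) times the expected number. Bhmt had 0.947 (0.889 to 1.01) and 1.03 (0.961 to 1.11), and Pemt had 0.983 (0.828 to 1.16) and 0.788 (0.621 to 0.987). By Alb, free RNA made up 49.3% of the UMIs of this class in WT and 29.4% in HKO. HKO over WT ratios in non-hepatocyte classes therefore carry the difference in free RNA. The multiples of the expected number carry it too, since they fall as the free RNA share rises, and are not compared between the libraries. In the 195 endothelial-like barcodes of HKO, 3 alternative settings gave Dmgdh 1.33 to 1.36, Sardh 1.11 to 1.33 and Pemt 0.694 to 0.875 times the expected number.

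The clearest exceptions were the CDP-choline enzymes Pcyt1a and Chka. In T and NK-like barcodes of HKO they had 2.41 (1.87 to 3.06) and 2.09 (1.80 to 2.41) times the expected number, and in WT 1.02 (0.705 to 1.44) and 1.28 (1.11 to 1.47). With the free RNA profile taken from hepatocyte-like barcodes, Chka in T and NK-like barcodes was at 0.516 in WT and 1.19 in HKO, and Pcyt1a in HKO at 1.83. In macrophage-like barcodes (18 in WT, 94 in HKO), Pcyt1a had 19 UMIs in WT, 5.38 times the expected number (3.24 to 8.41), and 62 in HKO, 14.3 times (10.99 to 18.4). With doublets kept these values were 1.75 and 5.95. Free RNA by Alb made up 18.6% of this class in WT and 7.73% in HKO, and the level of Pcyt1a was 55.2 and 62.7 CPM, a ratio of 1.14 (0.671 to 2.01) whose interval includes 1 and which free RNA is part of. Monocyte and dendritic-like barcodes (39 and 112) had 6.42 (4.58 to 8.74) and 7.99 (5.83 to 10.7) times the expected Pcyt1a. Chka was at 4.44 (3.51 to 5.53) and 14.8 (12.8 to 16.9) times in macrophage-like barcodes, in 18 of 18 and 65 of 94 of them. Its level there was 229 CPM for WT against 209 CPM for HKO (ratio 0.913, 0.701 to 1.20), free RNA included. With the free RNA profile taken from hepatocyte-like barcodes the Chka values were 1.79 and 8.44, and with doublets kept they were 2.35 and 5.24. Barcodes like cholangiocytes, the cells that line bile ducts, numbered only 7 and 24. In them Chka had 278 and 344 UMIs, or 29.3 (25.99 to 33.003) and 27.0 (24.2 to 30.004) times the expected number. Every one of them held Chka UMIs, and the richest held 38.5% of the class total in WT and 25.6% in HKO. Chdh was above free RNA in macrophage-like barcodes of WT, at 2.74 (1.46 to 4.68) times, but not of HKO, at 0.958 (0.261 to 2.45) times, and the WT value was 1.10 with doublets kept. In monocyte and dendritic-like barcodes of HKO it had 15 UMIs, at 2.76 (1.54 to 4.55) times, and 2.11 to 2.79 under the alternatives. In cholangiocyte-like barcodes it was above in both, with 21 UMIs in each library, at 8.30 (5.14 to 12.7) and 5.53 (3.42 to 8.46) times, 11 of the 21 WT UMIs coming from 1 barcode.

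**Figure D4:**
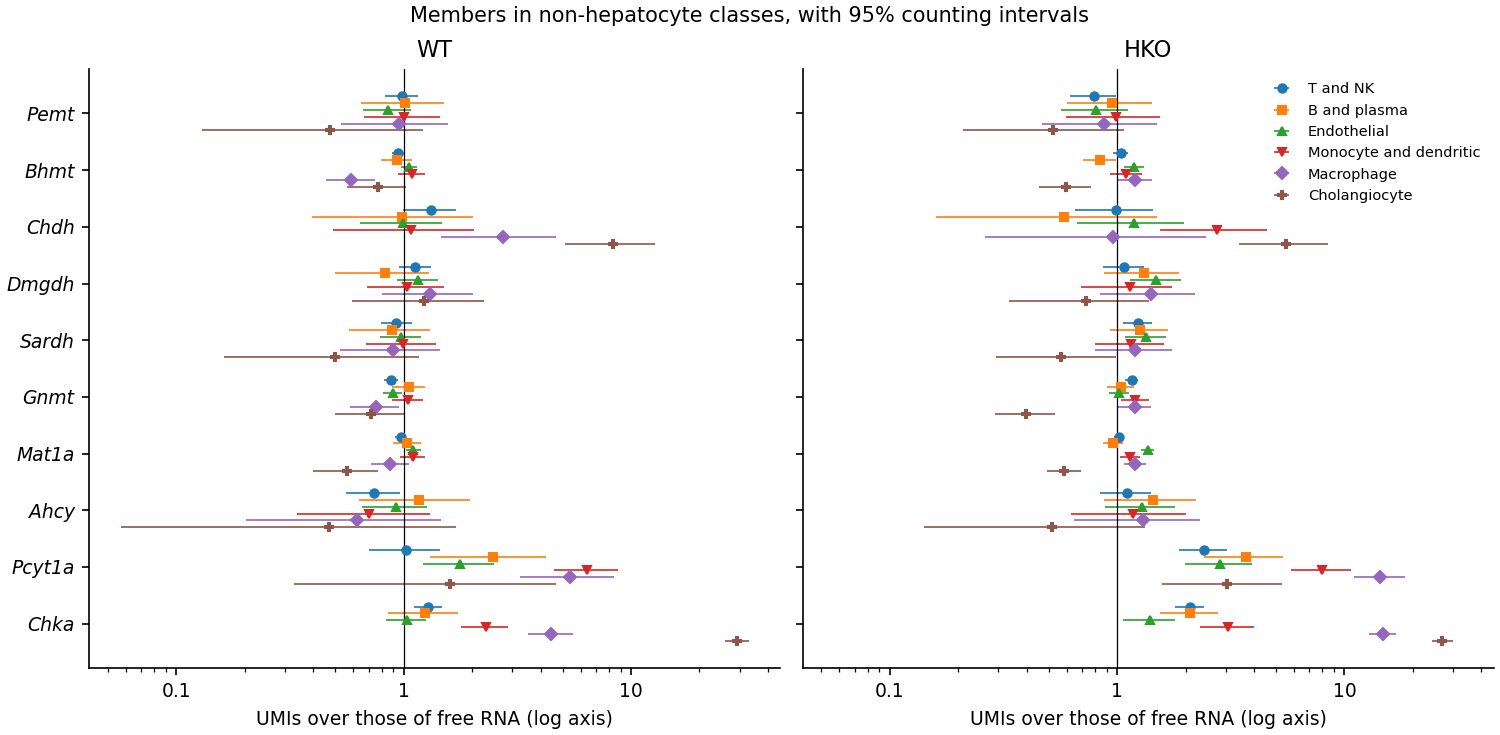
Members in 6 non-hepatocyte classes, WT left and HKO right. The horizontal log axis gives observed UMIs over those expected from free RNA with counting intervals, and 1 (line) is the level of free RNA alone. In macrophage-like barcodes Chka (4.44 and 14.8) and Pcyt1a (5.38 and 14.3) lie right of the line in both libraries, and the intervals of Pemt, Sardh and Ahcy include it. Free RNA made up 18.6% and 7.73% of the class, so the sizes are not compared between the libraries.

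Relatives of the members that are used outside hepatocytes stood above free RNA in the same classes. Ahcyl2, a gene related to Ahcy, was at 13.4 (11.3 to 15.7) and 21.8 (19.3 to 24.5) times the expected number in T and NK-like barcodes. In macrophage-like barcodes it was at 31.6 (22.2 to 43.5) and 73.8 (62.2 to 86.9) times. Mat2a was at 6.60 (4.83 to 8.80) and 23.5 (19.9 to 27.5) times in macrophage-like barcodes, and at 1.60 (1.31 to 1.94) and 4.14 (3.55 to 4.798) times in T and NK-like barcodes. Bhmt2 stayed at 0.940 (0.783 to 1.12) and 1.23 (0.991 to 1.52) times in T and NK-like barcodes.

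The remaining genes of choline, methionine and one-carbon metabolism gave 79 more genes in 6 lists, of which 57 averaged 10 CPM or more in the hepatocyte-like class. Their median log2 ratio was 0.01, with 29 higher and 28 lower in HKO (50.9% higher, beside 45.8% of all genes). At 1.5-fold, 3 were higher and 1 was lower, beside 2.42% and 4.25% of all genes. Gpcpd1, which cleaves glycerophosphocholine on the way back to choline, measured 57.2 CPM in WT against 119 CPM in HKO (ratio 2.09, 1.98 to 2.20). Nnmt, which methylates nicotinamide with S-adenosylmethionine, stood at 92.1 and 158 CPM (ratio 1.72, 1.65 to 1.80). Csad, an enzyme of taurine synthesis, stood at 133 and 210.3 CPM (ratio 1.58, 1.53 to 1.64). As3mt, an arsenite methyltransferase, followed at 1.35 (1.26 to 1.45). Among the lowest ratios were those of Selenoi, the ethanolamine phosphotransferase, at 0.662 (0.619 to 0.709), Gldc of the glycine cleavage system at 0.704 (0.683 to 0.725), and Fpgs, which adds glutamate to folates, at 0.725 (0.691 to 0.760). Among the 10 measured genes of phospholipid synthesis 4 were higher and 6 lower (40.0% higher), with a median of -0.16. Among the 18 genes of S-adenosylmethionine use and polyamines 11 were higher and 7 lower (61.1% higher), with a median of 0.06.

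**Figure D5:**
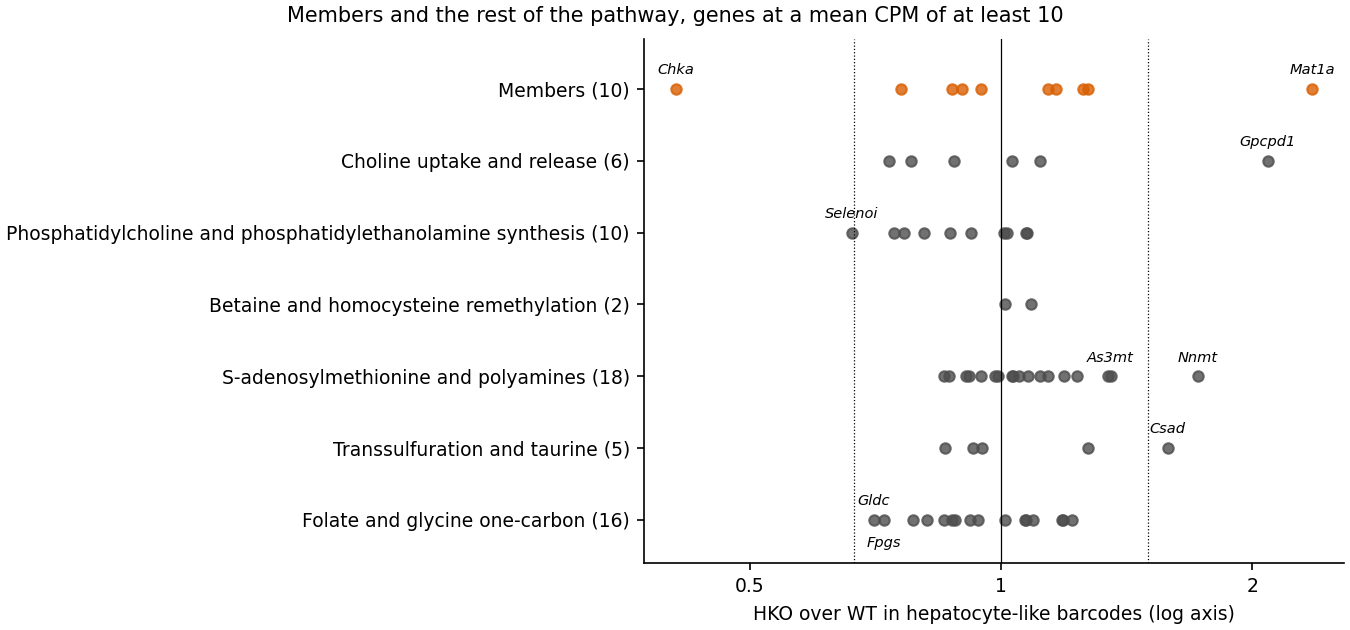
HKO over WT ratio (horizontal log axis) in hepatocyte-like barcodes for the members (orange) and for the other pathway genes (grey) by list, with the number of genes that averaged 10 CPM or more in brackets and 1.5-fold either way as dotted lines. Mat1a and Chka lie further out than every gene plotted from the other 6 lists.

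Several other pathway genes were zoned in the same direction in both libraries. Csad was 4.07-fold (3.79 to 4.37) higher in the pericentral zone in WT and 8.37-fold (7.58 to 9.26) in HKO. Gpcpd1 was 1.55-fold (1.42 to 1.69) higher in WT and 3.48-fold (3.14 to 3.85) in HKO. On the periportal side, the pericentral to periportal ratio of Gldc was 0.447 (0.429 to 0.465) and 0.285 (0.262 to 0.311), and that of Nnmt was 0.597 (0.554 to 0.644) and 0.408 (0.370 to 0.449). Cbs, which diverts homocysteine to cysteine, had 0.689 (0.659 to 0.721) and 0.510 (0.472 to 0.552). Of 58 pathway genes, 7 were at least 1.25-fold higher pericentrally in both libraries and 5 at least that much lower, beside the 13.2% and 5.51% of all genes.

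Genes whose profile over the 20 zone steps of both libraries was most like that of a member were found among 2633 genes, each centred within its library. For Chka they were Baiap2l1 (r = 0.905), Lncpint (r = 0.904) and the stress-response factor Atf3 (r = 0.903). For Mat1a they were Rtn4 (r = 0.886), Abat (r = 0.879) and Magt1 (r = 0.869). Gnmt ran with Agxt (r = 0.943), Apoa5 (r = 0.941) and Pecr (r = 0.922), and Pemt with Ndufb11 (r = 0.960), Mrpl12 (r = 0.934) and Ndufb10 (r = 0.929). The steps share libraries, depth and the zone score, and the correlations are descriptions over these points. For the other members the first-ranked genes were Metap2 (Bhmt, r = 0.766), Arhgap5 (Chdh, r = 0.918), Scarb2 (Dmgdh, r = 0.786), Slc27a5 (Sardh, r = 0.859), Slc9a3r1 (Ahcy, r = 0.928) and Atl3 (Pcyt1a, r = 0.904). Between members the same measure ran from -0.748 for Pemt and Chdh to 0.695 for Chdh and Mat1a.

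Because miR-33 was the deleted regulator, matches to its seed were looked for in the annotated 3'UTRs (GENCODE M21, GRCm38) of the members. The mature sequence (RefSeq, GRCm38.p6) is printed with its seed, bases 2 to 8, in capitals, and below it the 2 matches found, with the matching letters in capitals and the transcript strand shown.
mmu-miR-33-5p: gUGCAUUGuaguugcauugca
Chdh, chr14:30039267-30039273, plus strand: atcaaacctAATGCAAagattttaa
Pcyt1a, chr16:32473517-32473523, plus strand: ccctgtggaAATGCAAagggagccg
The letters searched, on the transcript strand only, were CAATGCAA (8mer), CAATGCA (7mer-m8) and AATGCAA (7mer-A1), where the 8mer holds both shorter ones. Both matches were 7mer-A1, in 1 of 2 annotated 3'UTRs of Chdh and in 2 of 4 of Pcyt1a. A match of any kind was present in 2 of 10 members and in 15.8% of the 21037 genes with an annotated 3'UTR, and a 7mer-A1 match in 11.5%. Neither Mat1a nor Chka held one in these windows. The genes with a match had HKO over WT ratios of 0.872 (Chdh) and 1.25 (Pcyt1a) in the whole class. Within clusters Chdh ran from 0.3999 in cluster 7 to 1.64 in cluster 4, above 1 in 3 of 6, and Pcyt1a from 0.850 to 1.99 in the same clusters, above 1 in 5 of 6.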

How the data were processed

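Count matrices (UMIs per gene and barcode) were used as deposited by the authors, 1 library of WT and 1 of HKO liver cells. The matrix header names Cell Ranger 7.1.0, and the submitters' processing notes name Cell Ranger, R 3.0, Seurat 3 and mm10. Whether intronic reads were counted, and how the deposited barcodes were chosen, is not given in the sources used here. The filters kept barcodes of 500 or more UMIs, 300 or more genes and no more than 50% mitochondrial UMIs. Scrublet marked no doublet in either library, so the top-scoring 0.8% per 1000 barcodes were left out, an assumed rate that took 7019 of 29620 WT barcodes (23.7%) and 2664 of 18247 HKO barcodes (14.6%). Clusters (scanpy 1.11.5, Leiden resolution 1) were named from 13 marker lists where 3 or more markers of a list were at least 2-fold higher and seen in at least 10% of barcodes. Counts were summed per class and library and divided by the class total (CPM), with exact Poisson intervals, and ratios have exact conditional intervals. Barcodes that both libraries share were not counted here. Zones used UMIs thinned to 5000 and 21 landmarks. Free RNA was scaled by Alb. Ratio and zone steps were tested on simulated data.

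The members and lists were chosen with earlier results of these data known. Named genes were the members, their closest relatives, the 4 highest and 4 lowest ratios of the pathway lists, the 3 genes most like each member and the check genes, of which 1 gene is not reported here. Alternatives changed the depth, mitochondrial and doublet limits, the scaling, the weighting, the fold and the landmarks. Depth bands, mitochondrial bands, values within clusters or without cluster 2, T and NK-like shares at 5000 UMIs, leaving out the richest barcode and the 1.25-fold zone threshold were added after seeing the data. Python 3.11.15, numpy 2.4.6, scipy 1.17.1 and pandas 2.3.3 were used.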

Additional observations from a re-analysis of the deposited data

Results flagged for a closer look

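For 3 members the pericentral over periportal ratio lay on opposite sides of 1 in the 2 libraries, which drew attention to them. Bhmt had a ratio of 0.925 in WT and 1.05 in HKO, Sardh had 1.06 and 0.837, and Chka had 0.808 and 1.30. Over all genes the median log2 ratio was 0.008 in WT and 0.129 in HKO, and Bhmt lay below that median in both libraries. The difference between the libraries was not tested, since there is 1 library per genotype. The contrast of the zone landmarks also differed between the libraries, and its part in these ratios was not tested.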

How the results depend on the processing

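No paired analysis was possible because each genotype has 1 library, and for the same reason no replicate could be left out. Over 14 alternatives Mat1a stayed above 2 (2.12 to 2.51) and Chka between 0.319 and 0.634. Within single clusters Mat1a ran from 1.41 to 2.90, and Chka from 0.400252 to 1.52, where cluster 4 turned its direction, and Chdh from 0.3999 to 1.64. Without cluster 2 no member moved beyond its interval. The number of members at least 1.5-fold higher, 1 as reported, was 2 with barcodes thinned to 1000 UMIs or weighted equally, and 3 at 10000 to under 20000 UMIs. The median log2 ratio of the pathway list was -0.14 with no depth minimum. The pathway genes at least 1.5-fold higher, 3 as reported, numbered 5 at 5140 to under 10000 UMIs, 9 at 10000 to under 20000, 5 at 20000 to under 40000, and 1 at a fold of 2. Those at least 1.5-fold lower, 1 as reported, numbered 0 with at least 5000 UMIs in both libraries, at most 20% mitochondrial UMIs, totals without mitochondrial genes, scaling by the median ratio, either band below 20000 UMIs, or a fold of 2. They numbered 2 with no depth minimum, without barcodes of 40000 UMIs or more, or at a mean CPM of at least 1. They numbered 4 with thinning to 1000 UMIs, 3 with equal weights and 5 at 20000 to under 40000 UMIs. The pericentral over periportal ratio of Chka in HKO was 0.998 at most 20% mitochondrial. With the free RNA profile from hepatocyte-like barcodes, Chka in monocyte and dendritic-like barcodes of WT was at 0.922 and Gnmt in mixed macrophage and stellate barcodes of WT at 1.02 times the expected number. The causes were not tested.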
